A study of Mus musculus with 18 samples.

Results

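The response of C57BL/6 (B6) bone marrow-derived macrophages (BMDMs) to apoptotic cells (ACs) was described across all genes from 6 of the 18 RNA-seq samples of the series. These were the 3 AC-treated and the 3 untreated B6 samples, chosen by the strain and treatment that their labels give. The BMDMs came from female B6 mice of 7 to 12 weeks of age, were grown in L929-conditioned medium, and received dexamethasone-killed mouse thymocytes at 5 ACs per BMDM for 2 h, followed by washing and a further 3 h of culture. The untreated samples received no stimulus. The labels name no transgene or deletion for B6, and the thymocytes came from B6 and SjSS mice, with no donor strain given for single samples. The other samples were B6 BMDMs treated with 1 µM CpG oligonucleotide for 6 h, and the same 3 conditions in SjSS BMDMs, from the C57BL/6.NOD-Aec1Aec2 strain, in which intervals of the NOD genome stand on the B6 background as a model of Sjögren's syndrome. The study's figure legends give 3 mice for each strain. The labels give 3 samples a group and do not say which samples came from the same mouse.

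Macrophages clear dying cells by efferocytosis: they find them through released nucleotides and lipids, bind exposed phosphatidylserine through receptors such as Mer and Axl and bridging proteins such as Gas6 and Mfge8, and break them down in lysosomes. The cargo brings cholesterol, fatty acids, amino acids, nucleotides, heme and metal ions into the macrophage. Sterols from the cargo are known to activate liver X receptors (LXRs), which drive cholesterol export, and to hold back SREBP-2, which drives cholesterol synthesis. Efferocytosis is also known for restraining inflammatory genes while inducing mediators such as Il10.

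**Figure D1:**
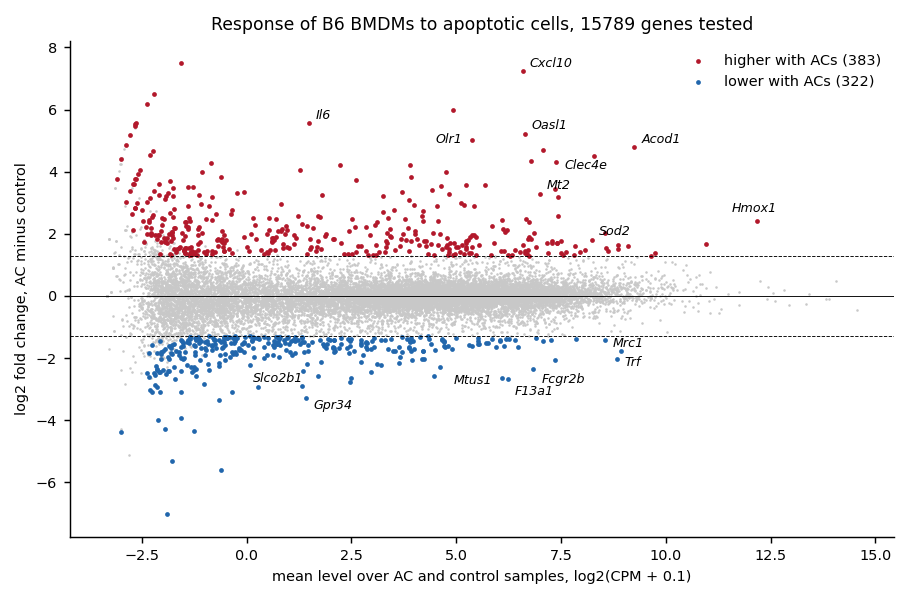
Log2 fold change of the 15789 tested genes (AC minus untreated, B6) against their mean level over the 6 samples, log2(CPM + 0.1). Red points mark the 383 genes higher and blue points the 322 genes lower with ACs by both the adjusted p (under 0.05) and the fold requirement (log2 fold change over 1.3, dashed lines). Cxcl10 has a log2 fold change of 7.24 and Hmox1, at the right, one of 2.43.

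The 3 untreated B6 samples held 45180431 to 57139662 estimated counts and the 3 AC-treated samples 43846598 to 51755351. Levels are given as CPM, counts scaled to a common library size with TMM factors, which corrects for depth but not for gene length, so levels are compared between samples and not between genes. All 10 macrophage markers were tested and their sum lay at 18564 to 19284 CPM without and 16564 to 17500 CPM with ACs. Within it Csf1r, the receptor for the macrophage growth factor, was lower at a log2 fold change of -0.54 (adjusted p = 3.27e-08), and Adgre1, which encodes F4/80, was higher at 0.38 (adjusted p = 4.2e-05). Of 30 thymocyte markers, 11 were tested, of which 2 were higher with ACs and 3 lower. The T cell surface receptor Cd5 was higher at a log2 fold change of 1.25 (adjusted p = 0.00809) and the T cell transcription factor Tcf7 at 1.36 (adjusted p = 0.0395), each from a mean below 1 CPM, and Cd4, Cd28 and Satb1 were lower. The 30 summed to 84.9 to 101.3 CPM untreated and to 39.02 to 46.1 CPM with ACs, and Cd28, which fell from a mean of 70.1 to 23.8 CPM (log2 fold change -1.56, adjusted p = 1.36e-07), carried most of that sum. The 19 markers below the filter on low counts, among them Cd3e, Trac, Rag1 and Dntt, summed to 0.396 to 0.693 CPM untreated and to 1.37 to 2.25 CPM with ACs (p = 0.1 by an exact permutation test, two-sided, which is as small as 3 against 3 samples can give). Rag1, Dntt and Trac had 0 counts in all 3 untreated samples. The part of thymocyte RNA in the results below was not tested. In bulk samples, fewer cells of a type and less RNA per cell cannot be told apart. Fibroblast markers summed to 65.8 to 200.3 CPM in the untreated and 125.9 to 170.1 CPM in the AC-treated samples, and none of the 8 tested passed the test.

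Of 15789 genes tested with edgeR's quasi-likelihood test, 3157 (20.0%) were higher and 2890 (18.3%) were lower with ACs at a Benjamini-Hochberg adjusted p under 0.05. With the added requirement of a log2 fold change over 1.3, 383 (2.43%) were higher and 322 (2.04%) lower. These percentages are the background against which the counts of each gene group below are read. The 3 AC samples and the 3 untreated samples did not overlap in 7874 genes (49.9%). The median log2 fold change over all tested genes was 0.001. Below, "higher" and "lower" without a further condition mean the adjusted p alone.

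Cxcl10, a chemokine for activated T cells, stood at 1.201, 1.04 and 1.51 CPM in the untreated samples and at 181, 188 and 204 CPM with ACs, a 152-fold increase (log2 fold change 7.24, SE 0.29, adjusted p = 1.95e-12). Olr1, the scavenger receptor LOX-1 for oxidised lipoprotein that also binds dying cells, stood at 2.34, 2.48 and 2.52 CPM untreated and 69.03, 89.2 and 82.8 CPM with ACs (32.8-fold, adjusted p = 1.24e-13). In both genes the spread within each group was small beside the gap, and the choice of these genes required that the groups not overlap. Clec4e, the lectin Mincle that senses a protein released by dead cells, went from 16.1, 15.5 and 15.7 to 276, 323 and 346 CPM (20.01-fold, adjusted p = 7.64e-15). Its adjusted p and that of Cd69 were the smallest of the comparison. Acod1, which makes the immunometabolite itaconate from a tricarboxylic acid cycle intermediate, went from 40.2, 44.1 and 42.1 to 1022, 1284 and 1217 CPM (27.9-fold, adjusted p = 6.53e-14). Cd69, an early activation marker, rose from 2.02, 1.86 and 2.04 to 25.2, 28.3 and 31.8 CPM (log2 fold change 3.84, SE 0.10). Changes of smaller size but equal precision were seen in the hepatocyte growth factor receptor Met (log2 fold change 2.15, SE 0.09), in Mefv, which encodes the inflammasome sensor pyrin (2.37, SE 0.10), and in the kinesin Kif3c (2.04, SE 0.08). Each of these 3 genes had its AC samples within a narrow band, for example 118, 105 and 115 CPM for Met against 25.1, 26.4 and 24.6 CPM untreated.

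**Figure D2:**
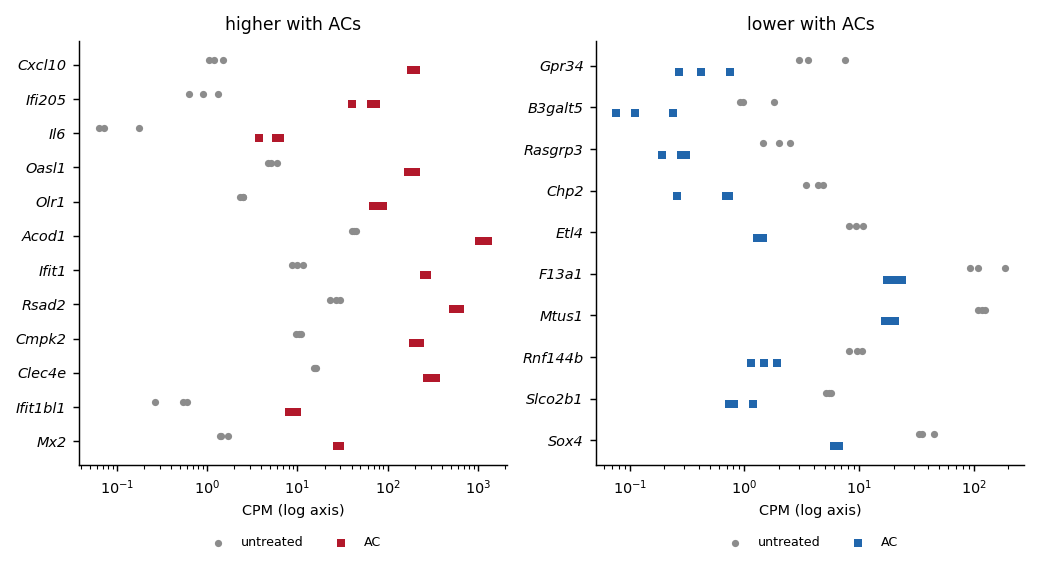
CPM (log axis) in each of the 3 untreated (grey circles) and 3 AC-treated (coloured squares) B6 samples for genes with the largest fold changes, higher at the left and lower at the right. The groups do not overlap in any gene shown, which the choice of genes required. Cecr6 is left out because it was at 0 in 2 AC samples.

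Interferon-stimulated genes moved in 1 direction. Of the 52 tested, 50 were higher with ACs and none was lower, against a background of 20.0% higher genes, and their median log2 fold change was 1.23. With the fold requirement 25 of 52 were called, against 2.43% of all genes. Among the antiviral effectors, Ifit1, which blocks translation of foreign RNA, stood at 11.4, 9.93 and 8.67 CPM untreated and 256, 251 and 271 CPM with ACs (25.9-fold). Mx2 stood at 1.41, 1.71 and 1.403 CPM and 29.5, 27.3 and 27.2 CPM (log2 fold change 4.22, SE 0.21). Rsad2, which makes viperin, rose from 26.8, 29.5 and 22.7 to 631, 532 and 636 CPM, and its neighbour Cmpk2, a mitochondrial nucleotide kinase, from 10.5, 10.97 and 9.59 to 230.0, 189.9 and 212 CPM. The choice of all 4 genes required that the groups not overlap. Their AC samples differed from each other by less than the distance to the untreated samples. Over the list the AC samples lay above every untreated sample in 50 of 52 genes, and the groups did not overlap in 49.9% of all genes. Oasl1, a member of the oligoadenylate synthetase family that limits Irf7 translation, had the largest change of the list (5.09, 6.01 and 4.69 against 168, 207 and 205 CPM, log2 fold change 5.20, SE 0.25). The ubiquitin-like modifier Isg15 rose 7.63-fold (adjusted p = 3.49e-09). Ifi205, of a family with closely similar copies whose reads may be shared, had a log2 fold change of 5.99 (SE 0.34), and the same limit holds for the Ifit1 relative Ifit1bl1 (4.22, SE 0.23). Ifnb1, which encodes interferon beta, was close to the limit of detection at 0, 0 and 0.0888 CPM untreated and 0.0993, 0.303 and 0.111 CPM with ACs (adjusted p = 0.025). That call was lost when AC replicate 2, untreated replicate 1 or untreated replicate 2 was left out (adjusted p = 0.183, 0.104 and 0.0808).

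The promoter of Cxcl10 is shown because it carries the element read by the interferon-activated ISGF3 and IRF factors. It is the sequence of the 250 bases before the RefSeq start, GRCm38.p6, chr5:92348890-92349139, minus strand, printed 5′ to 3′, with the match to the core of the interferon-stimulated response element (ISRE), GAAA and again GAAA after a gap of 2 bases, in capitals:
Cxcl10: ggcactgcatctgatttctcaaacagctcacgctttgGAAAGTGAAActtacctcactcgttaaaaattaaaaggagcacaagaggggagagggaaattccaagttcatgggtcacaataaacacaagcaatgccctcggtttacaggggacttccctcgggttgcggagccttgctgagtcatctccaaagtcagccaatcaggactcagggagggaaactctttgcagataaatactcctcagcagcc

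The match began 213 bases before the start. On either strand of the same 250 bases, the ISRE core was found in 21 of the 40 interferon-stimulated genes with a promoter in the RefSeq table (52.5%), in 24 of 266 genes called higher with the fold requirement (9.02%), in 6 of 190 called lower (3.16%) and in 347 of all 10390 tested genes with a promoter (3.34%). The promoter table covers part of the tested genes, and a match is a description of letters and not evidence of binding.

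Chemokine ligands rose in 17 of 25 tested genes and fell in 4, with a median log2 fold change of 1.55. Cxcl3, a neutrophil attractant, stood at 2.74, 3.71 and 3.14 CPM untreated and 49.7, 49.4 and 52.3 CPM with ACs (15.9-fold, adjusted p = 5.66e-13). Ccl5, which attracts T cells and monocytes, rose from 2.48, 3.38 and 5.098 to 31.1, 44.3 and 41.1 CPM (log2 fold change 3.41), and Ccl4 rose from 20.5, 21.6 and 21.3 to 108, 118 and 121 CPM (2.45). The monocyte chemokine Ccl2 had a smaller change (log2 fold change 1.28, SE 0.15, adjusted p = 1.46e-06). Cxcl9, an interferon gamma target, was at a low level, at 0, 0 and 0.0178 CPM untreated and 0.218, 0.151 and 0.223 CPM with ACs. The ligands for neutrophils, T cells and monocytes thus all had members among those that rose.

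Inflammatory cytokines and mediators rose in 19 of 27 tested genes and fell in none, with a median log2 fold change of 1.83. Il1b, which encodes the precursor that inflammasomes activate to IL-1 beta, stood at 4.29, 4.36 and 7.14 CPM untreated and 39.99, 60.5 and 54.00 CPM with ACs (log2 fold change 3.29, SE 0.21). Tnf stood at 46.5, 45.9 and 45.5 CPM and 144, 179 and 167 CPM (1.83, SE 0.14). Il6 was low in absolute terms: 0.176, 0.0626 and 0.0711 CPM untreated against 3.71, 6.36 and 5.75 CPM with ACs, a log2 fold change of 5.58 (adjusted p = 1.26e-09), which became 6.24 without untreated replicate 1, the highest of the 3 controls. Nos2, the inducible nitric oxide synthase, stayed under 1 CPM in every sample (0.04804, 0 and 0.0711 untreated, 0.516, 0.359 and 0.669 with ACs, adjusted p = 0.00199). All 4 were higher in each AC sample than in each untreated sample. The same held for 19 of 27 in the list, beside 49.9% of all genes without overlap in either direction.

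The Il6 promoter is shown as an example of a window that holds NF-kB-type sequences (GRCm38.p6, chr5:30012864-30013113, plus strand, 250 bases before the start, 5′ to 3′, matches on either strand to the NF-kB core, GGG and CC around a gap of 5 bases, in capitals):
Il6: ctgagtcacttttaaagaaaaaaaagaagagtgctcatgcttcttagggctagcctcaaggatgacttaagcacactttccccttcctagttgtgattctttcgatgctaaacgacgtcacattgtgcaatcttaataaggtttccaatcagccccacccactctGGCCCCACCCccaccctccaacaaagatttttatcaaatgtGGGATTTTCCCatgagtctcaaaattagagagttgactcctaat

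It held 3 matches, beginning 85, 44 and 43 bases before the start, of which the last pair overlap. This motif is short of fixed letters and was found in 6845 of 10390 tested genes with a promoter (65.9%). In the cytokine list 11 of 20 genes held it (55%). Of the genes called higher with the fold requirement, 162 of 266 did (60.9%). Its share in those genes was thus not above that of all genes.

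Feedback inhibitors of inflammatory signalling rose alongside, in 19 of 35 tested genes, and fell in 6, with a median log2 fold change of 0.57. The IkB protein Nfkbie stood at 18.7, 19.1 and 22.2 CPM untreated and 81.97, 103 and 102 CPM with ACs (log2 fold change 2.25, adjusted p = 1.72e-11). Tnip1, a partner of the deubiquitinase A20, rose from 103, 108 and 111 to 261, 315 and 280.4 CPM (1.41), and Cd274, which encodes the checkpoint ligand PD-L1, from 95.7, 107 and 95.98 to 256, 264 and 266 CPM (1.39). Socs3, an inhibitor of cytokine receptor signalling, rose from 11.4, 11.3 and 11.7 to 29.5, 41.6 and 35.95 CPM (1.63, SE 0.14). Among repair and growth factors 7 of 25 were higher and 8 lower, a near-even split. Il10, the main anti-inflammatory cytokine of macrophages, stood at 2.18, 1.75 and 2.56 CPM untreated and 6.73, 7.61 and 7.07 CPM with ACs (log2 fold change 1.71, adjusted p = 4.22e-07), and Tgfb1 had a change of 0.19 (SE 0.05). Hgf, which encodes hepatocyte growth factor, the ligand of the Met receptor, fell from 43.6, 54.1 and 46.5 to 21.5, 21.9 and 22.4 CPM (-1.13, adjusted p = 5.76e-07), while Met itself rose. Mrc1, the mannose receptor CD206, fell from 513, 600.5 and 534 to 188, 216 and 213 CPM (-1.42, adjusted p = 3.87e-10).

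Transcription factors moved in both directions. Of 34 immediate early factors 13 were higher and 6 lower. Klf2, a factor that restrains myeloid activation, stood at 15.2, 11.3 and 24.6 CPM untreated and 48.3, 64.2 and 48.7 CPM with ACs (log2 fold change 1.65, adjusted p = 9.69e-07). Atf3 rose from 353, 369 and 344 to 578, 553 and 521 CPM (0.63), whereas Egr1 did not pass the test (13.9, 14.7 and 17.6 against 11.9, 13.5 and 12.3 CPM, adjusted p = 0.126). Of 30 macrophage lineage factors 7 were higher and 15 lower, with a median log2 fold change of -0.18. Cebpb, an inducible factor of inflammatory and tissue macrophages, rose (0.78, SE 0.08), and Spi1, which encodes PU.1, rose from 367, 366 and 389.9 to 486, 535 and 490.2 CPM. Mef2c fell from 76.3, 68.2 and 56.4 to 25.1, 22.6 and 26.3 CPM (-1.44, adjusted p = 1.18e-08).

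Genes of heme and iron handling and of the antioxidant factor NRF2 were higher in 18 of 29 and lower in 3, with a median log2 fold change of 0.37. Hmox1, which breaks down heme, was already among the well-expressed genes at 1309, 1564 and 1502 CPM untreated and reached 7709, 8251 and 7555 CPM with ACs, a 5.38-fold increase (adjusted p = 1.95e-12). Spic, the heme-induced factor of iron-recycling macrophages, stood at 7.85, 8.93 and 6.43 CPM and 55.1, 66.2 and 62.9 CPM (7.96-fold, adjusted p = 2.63e-11). The cystine transporter Slc7a11, which feeds glutathione synthesis, rose from 70.8, 95.3 and 80.1 to 286, 259 and 287 CPM (log2 fold change 1.76), and Gclm, a subunit of the enzyme that makes the glutathione precursor, from 607, 581 and 515 to 807, 833 and 808 CPM (0.52). Sod2, the mitochondrial superoxide dismutase, rose from 137, 138 and 133 to 436, 486 and 485 CPM (1.79, SE 0.06). One iron gene went the other way: Trf, which encodes transferrin, fell from 788, 718 and 702 to 201, 181 and 162 CPM, 4.06-fold lower (adjusted p = 2.91e-11). Heat shock proteins were higher in 19 of 24 and lower in 1, with a median of 0.37. Hsph1 rose from 31.9, 34.2 and 33.1 to 56.7, 55.6 and 55.2 CPM (0.76) and Hsp90aa1 from 236, 249.5 and 229 to 345, 329 and 343 CPM (0.51). The largest values were those of the near-identical pair Hspa1b (3.23, SE 0.28) and Hspa1a (2.39, SE 0.39, and 3.19 without untreated replicate 3), whose reads the counting may have shared between them. Of 24 genes of the unfolded protein response of the endoplasmic reticulum 1 was higher and 9 were lower, among them the chaperone Calr from 757, 715 and 707 to 615, 562 and 578 CPM (-0.31), and the sensor Atf6 from 123, 132 and 121 to 85.8, 82.3 and 87.7 CPM (-0.55). Hspa5, which encodes BiP and is the usual readout of that response, did not pass the test at -0.02 (SE 0.09).

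Metallothioneins, small proteins that bind zinc and copper, rose with ACs. Mt2 stood at 29.2, 21.9 and 20.2 CPM untreated and 268, 209.7 and 217 CPM with ACs (9.71-fold, adjusted p = 1.30e-10), and Mt1 at 126, 107 and 103 CPM and 385, 319 and 321 CPM (3.05-fold, adjusted p = 2.71e-09). Among zinc transporters the changes were smaller, for example Slc30a6 (log2 fold change 0.66) and Slc39a13 (0.49). Both metallothioneins are also induced by glucocorticoids, and the thymocytes had been killed with dexamethasone. Of 20 genes known to be induced by glucocorticoids, 6 were higher and 7 lower. Fkbp5, the usual reporter of glucocorticoid receptor activity, stood at 19.6, 15.3 and 15.9 CPM untreated and 19.5, 15.9 and 17.8 CPM with ACs (0.06, adjusted p = 0.679), Fgd4 and Sesn1 fell (-1.38 and -0.91), and the 6 higher were the metallothioneins themselves, Dusp1 (0.57), Cebpd (0.42), Tgm2 (0.26, adjusted p = 0.0386) and Tsc22d3, which encodes GILZ and is another usual reporter. Tsc22d3 went from 50.7, 47.7 and 52.2 to 57.5, 61.9 and 61.4 CPM (0.26, adjusted p = 0.047), without overlap of the groups, and did not pass the test when any 1 of the 6 samples was left out (adjusted p from 0.0545 to 0.142). The part of dexamethasone in these values was not tested.

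The Mt2 promoter is shown with a strict form, TGCGCNC, of the core of the metal response element read by the zinc sensor MTF-1, in capitals (GRCm38.p6, chr8:94172368-94172617, plus strand, 250 bases before the start, 5′ to 3′):
Mt2: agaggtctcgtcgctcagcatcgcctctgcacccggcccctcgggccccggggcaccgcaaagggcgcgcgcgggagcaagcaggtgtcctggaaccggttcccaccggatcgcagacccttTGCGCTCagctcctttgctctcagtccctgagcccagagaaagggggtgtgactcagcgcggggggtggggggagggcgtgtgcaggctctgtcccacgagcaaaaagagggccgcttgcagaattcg

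It held 1 match to these letters, beginning 128 bases before the start. Other forms of the core were not searched. The same letters were found in 2519 of 10390 tested genes with a promoter (24.2%) and in 40 of 266 called higher with the fold requirement (15%). Mtf1 itself did not pass the test (0.10, adjusted p = 0.278).

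Sterol synthesis and uptake genes fell together. Of 26 tested genes 23 were lower with ACs and none was higher, against a background of 18.3% lower genes. The median log2 fold change was -0.98, all 26 values were below 0, and the value nearest to 0 was -0.07 for Insig2. Stard4, a cholesterol transfer protein, stood at 46.3, 40.6 and 33.3 CPM untreated and 13.6, 12.4 and 12.03 CPM with ACs, 3.15-fold lower (SE 0.11 on the log2 scale, adjusted p = 9.26e-10). Along the pathway, Hmgcs1, which makes HMG-CoA, fell from 76.3, 72.95 and 58.5 to 34.7, 34.1 and 32.6 CPM (-1.03, adjusted p = 1.40e-08). Msmo1, a later demethylation step, fell from 52.4, 46.4 and 43.00 to 23.9, 22.99 and 22.4 CPM (-1.03). Srebf2, which encodes SREBP-2, fell from 111, 98.4 and 104 to 67.00, 69.2 and 66.7 CPM (-0.63). In all 4 genes the AC samples lay below every untreated sample. The same held for 23 of the 26 in the list, beside 49.9% of all genes without overlap in either direction.

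The promoter of Hmgcs1 is shown because sterol regulation of this gene is read through a sterol regulatory element (SRE), core TCACNCCAC, in capitals (GRCm38.p6, chr13:119690101-119690350, plus strand, 250 bases before the start, 5′ to 3′):
Hmgcs1: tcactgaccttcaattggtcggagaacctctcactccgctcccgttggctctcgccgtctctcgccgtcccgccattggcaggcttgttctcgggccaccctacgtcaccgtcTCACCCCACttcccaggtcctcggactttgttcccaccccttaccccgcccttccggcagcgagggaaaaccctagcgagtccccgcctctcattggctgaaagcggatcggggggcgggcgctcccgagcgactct

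It held 1 match, beginning 137 bases before the start. This strict core was rare: it was found in 1 of 19 genes of the sterol list, which is Hmgcs1, and in 130 of 10390 tested genes (1.25%).

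Of 21 LXR target and cholesterol efflux genes 5 were higher and 4 lower, close to the 20.0% and 18.3% of all genes. Their median log2 fold change was 0.03. Among those that rose, Abcg1, a sterol exporter, stood at 108, 124 and 131 CPM untreated and 271, 287 and 293 CPM with ACs (2.34-fold, adjusted p = 3.41e-07). Abca1, the other sterol exporter, rose from 1059.9, 1355 and 1307 to 1687, 1793 and 1909 CPM (0.53, adjusted p = 0.00223), and Pltp, a phospholipid transfer protein, from 234, 358 and 389 to 627, 765 and 747 CPM (1.13). Nr1h3, which encodes LXR alpha, stood at 38.4, 44.7 and 53.5 CPM and 164, 199 and 191 CPM (4.06-fold, adjusted p = 8.95e-10). In each of these 4 genes the lowest AC sample lay above the highest untreated sample. Over the list the AC samples lay all above in 6 of 21 genes and all below in 6, beside 49.9% of all genes without overlap. The lipogenic LXR target Srebf1 did not pass the test (64.05, 62.5 and 69.7 against 62.1, 68.8 and 64.01 CPM, -0.01, SE 0.07), and Mertk, also an LXR target, fell (-0.65).

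**Figure D3:**
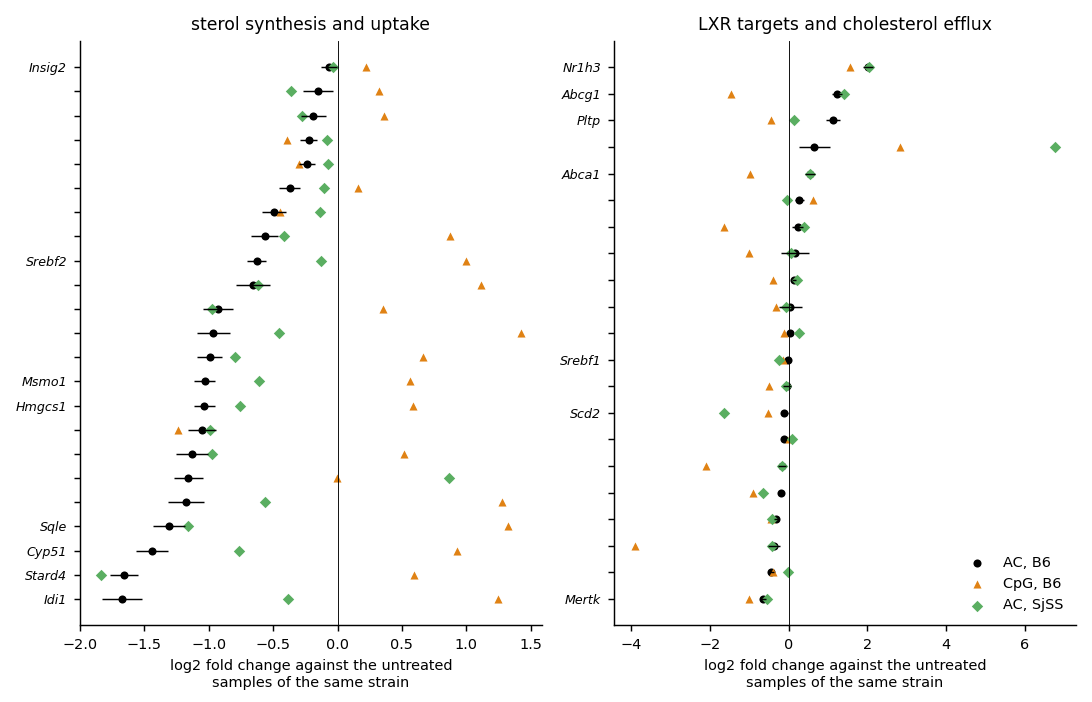
Log2 fold changes of 23 sterol synthesis and uptake genes (left) and the 21 LXR target and efflux genes (right), each against the untreated samples of the same strain, for ACs in B6 (black circles, bars ± SE), CpG in B6 (orange triangles) and ACs in SjSS (green diamonds). The AC and CpG values in B6 share their untreated samples. Genes described in the text are labelled. All 23 sterol genes drawn lie below 0 with ACs in B6, and the median of the 26 tested is -0.98 with ACs and 0.59 with CpG.

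Fatty acid genes changed gene by gene. Of 26 genes of fatty acid synthesis and desaturation 5 were higher and 9 lower. Acsl1, an acyl-CoA synthetase that rises in activated macrophages, went from 59.2, 64.1 and 58.6 to 109, 117 and 126 CPM (0.95, SE 0.06), while its relative Acsl3 fell from 15.7, 15.3 and 13.2 to 6.93, 7.001 and 6.29 CPM (-1.13). Lpin1, a phosphatidate phosphatase, fell from 38.2, 41.1 and 39.5 to 14.1, 11.6 and 13.1 CPM (-1.61). Fasn, the fatty acid synthase, fell from 55.3, 48.4 and 56.8 to 42.6, 37.7 and 36.1 CPM (-0.47, adjusted p = 0.00212), and Scd2 did not pass the test. Of 30 genes of fatty acid oxidation and PPAR targets 5 were higher and 12 lower. Plin2, the lipid droplet coat, rose from 842, 1034 and 1043 to 1823, 1661 and 1732 CPM (0.84, adjusted p = 9.68e-07). Cpt1a, the gate of mitochondrial fatty acid entry, fell from 231, 249.9 and 249.7 to 204, 211 and 198 CPM (-0.25), Hadh fell by 0.35 on the log2 scale, and Pparg did not pass the test (0.03, SE 0.17). The droplet coat gene and the oxidation genes named here had opposite signs.

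Glycolysis genes were higher in 13 of 29 and lower in 7, with a median log2 fold change of 0.18. Slc2a6, an inducible lysosomal sugar transporter, stood at 6.21, 5.01 and 7.16 CPM untreated and 17.5, 25.8 and 21.5 CPM with ACs (1.81, adjusted p = 4.34e-09). Eno2 rose from 2.53, 2.52 and 3.197 to 5.88, 8.004 and 7.18 CPM (1.35), whereas Ldhb, the lactate dehydrogenase subunit that favours pyruvate, fell from 29.9, 26.6 and 28.3 to 12.1, 11.7 and 10.6 CPM (2.47-fold lower), and Aldoc from 14.96, 12.3 and 12.6 to 6.096, 4.33 and 4.46 CPM (-1.42). Of 12 pentose phosphate genes 2 were higher and 2 lower, beside 20.0% and 18.3% of all genes (median 0.01). The higher ones were G6pdx (0.28, SE 0.05) and Pgd (0.23, SE 0.06), which catalyse the NADPH-yielding steps. The lower ones were Shpk and Rpia (-0.26). In the tricarboxylic acid cycle 9 of 29 were higher and 4 lower. Cs, which encodes citrate synthase, did not pass the test (0.02, SE 0.05), Mdh2 rose by 0.32, and cytosolic Idh1 fell from 382, 428 and 371 to 270.3, 275 and 289.6 CPM (-0.50).

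Many mitochondrial and ribosome-building genes were slightly higher. Nuclear genes of oxidative phosphorylation were higher in 30 of 71 and lower in 1, with a median log2 fold change of 0.14. Cycs, which encodes cytochrome c, rose from 18.8, 16.6 and 17.8 to 28.9, 27.9 and 30.8 CPM (0.72, adjusted p = 2.38e-07), and Atp5b, an ATP synthase subunit, from 412, 411 and 416 to 498, 508 and 496 CPM (0.28). Mitochondrial ribosomal proteins were higher in 38 of 74 and lower in 1 (median 0.20), with Mrpl39 at 0.63 (SE 0.08). Ribosome biogenesis genes, which build ribosomes in the nucleolus, were higher in 38 of 46 and lower in none (median 0.40). Nop56, a core protein of the methylation snoRNPs, rose from 37.8, 38.9 and 39.6 to 66.9, 65.1 and 67.3 CPM (0.78, adjusted p = 2.81e-09), Nop58 rose by 0.77, and Polr1a, the large subunit of RNA polymerase I, by 0.37 (SE 0.06). Myc, the known driver of this programme, did not pass the test (27.9, 22.8 and 25.4 against 25.1, 22.5 and 23.9 CPM, adjusted p = 0.55). The cytosolic ribosomal proteins themselves went the other way, with 4 of 75 higher and 23 lower (median -0.09), for example Rps4x at -0.30 (SE 0.05). Because of their many processed pseudogenes, reads of ribosomal proteins may be shared between copies and these values are uncertain. Small nucleolar RNA host genes split 2 higher and 4 lower of 15.

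Of 38 genes of serine, one-carbon and ATF4-driven metabolism 12 were higher and 7 lower, beside 20.0% and 18.3% of all genes. Atf4, the factor of the amino acid response, rose from 104, 112 and 117 to 151, 164 and 159.9 CPM (0.51, adjusted p = 9.34e-05), Nupr1 from 5.700, 6.195 and 6.27 to 12.2, 20.8 and 17.8 CPM (1.48), and the partner factor Cebpg fell (-0.81). Phgdh, the first step of serine synthesis, did not pass the test (0.64, adjusted p = 0.0587), and did without untreated replicate 3 (0.96, adjusted p = 0.0103). Cytosolic tRNA synthetases were higher in 11 of 20 and lower in 1: Dars rose by 0.47, Aars by 0.39, and Qars fell (-0.39). Of 17 genes of arginine and polyamine metabolism 7 were higher and 4 lower, with a median log2 fold change of 0.09. The synthetic and catabolic polyamine enzymes named here had opposite signs, and the others of the list are not described. Odc1, the rate-limiting ornithine decarboxylase, stood at 57.05, 61.7 and 65.1 CPM untreated and 142, 156 and 156 CPM with ACs (2.47-fold, adjusted p = 9.26e-10), while the catabolic enzymes Sat1 and Paox fell, Sat1 from 498, 532 and 487 to 309.6, 336 and 334 CPM (-0.63) and Paox by 1.17 on the log2 scale. Ass1, which regenerates arginine from citrulline, rose from 3.56, 4.61 and 5.399 to 15.5, 15.99 and 14.1 CPM (1.75), and Arg1 did not pass the test (59.6, 65.6 and 42.2 against 70.3, 43.1 and 32.6 CPM), although without AC replicate 1 its log2 fold change of -0.20 became -0.56 (adjusted p = 0.0377). Of 30 genes of purine and nucleic acid breakdown 9 were higher and 7 lower. Trex1, the cytosolic DNA exonuclease, rose from 18.03, 16.2 and 16.6 to 60.3, 65.8 and 64.8 CPM (1.91, adjusted p = 6.06e-08), and Pnp, a purine phosphorylase with a close copy, from 133, 126 and 129 to 212, 219 and 217 CPM (0.74).

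The Slc7a11 promoter is shown because it carries the amino acid response element bound by ATF4, core TGATGNAA, in capitals (GRCm38.p6, chr3:50443614-50443863, minus strand, 250 bases before the start, 5′ to 3′):
Slc7a11: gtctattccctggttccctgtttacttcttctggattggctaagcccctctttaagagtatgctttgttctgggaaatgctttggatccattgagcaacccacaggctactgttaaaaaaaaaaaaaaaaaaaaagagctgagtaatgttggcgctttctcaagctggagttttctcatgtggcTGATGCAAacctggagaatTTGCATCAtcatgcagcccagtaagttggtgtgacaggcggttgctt

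It held 2 matches, on opposite strands, beginning 66 and 47 bases before the start. The core was found in 7 of 33 genes of the serine and ATF4 list (21.2%) and in 259 of 10390 tested genes (2.49%).

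**Figure D4:**
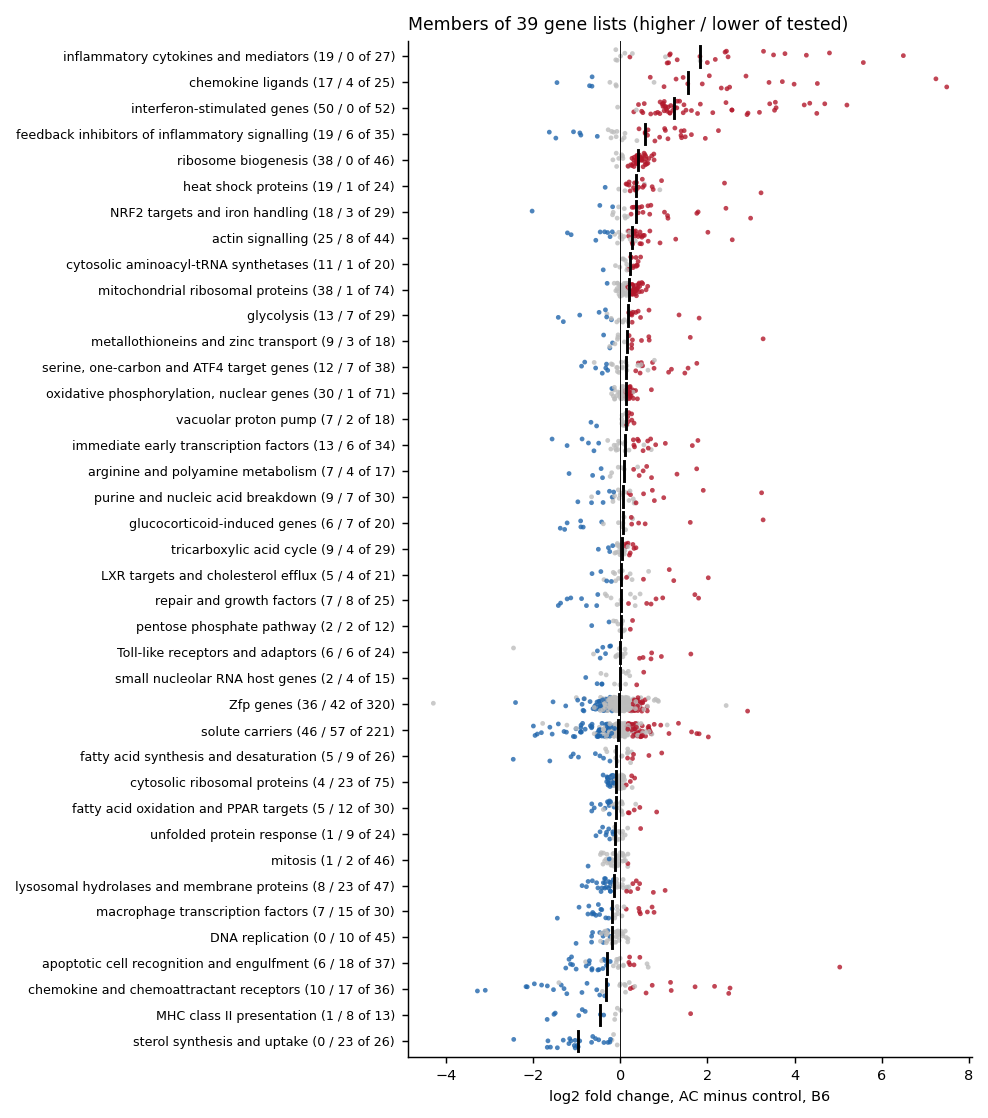
Log2 fold change (AC minus untreated, B6) of every tested member of 39 gene lists, ordered by the list median (black bars). Red and blue points are members higher or lower at an adjusted p under 0.05, grey points are the rest, and the numbers after each name give higher / lower of tested. The inflammatory, chemokine and interferon lists lie highest, and sterol synthesis lies lowest at a median of -0.98.

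Genes with which macrophages bind and engulf dying cells were more often lower than higher. Of 37 genes of AC recognition and engulfment 6 were higher and 18 lower, with a median log2 fold change of -0.31. Itgb5, a subunit of the integrin that binds Mfge8, stood at 604, 539.5 and 559 CPM untreated and 258, 255 and 259.7 CPM with ACs (-1.14, adjusted p = 4.36e-11). Stab1, a phosphatidylserine receptor, fell from 1507, 1385 and 1466 to 641, 665 and 626 CPM (-1.17), and Gas6, the bridging ligand of the TAM receptors, from 244, 286 and 268 to 87.99, 131 and 117 CPM (-1.25, adjusted p = 7.64e-07). The TAM receptors fell as well, Mertk from 207, 243 and 236 to 145, 148 and 145 CPM (-0.65) and Axl from 313, 237 and 234 to 170.2, 148 and 139 CPM (-0.78). The 3 AC samples were below the 3 untreated samples in all 5 genes, some of which were named for their small p. Over the list the AC samples were all below in 19 of 37 genes and all above in 9. The groups did not overlap in 49.9% of all genes. Olr1 was the one receptor of the list with a large increase.

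Lysosomal hydrolases and membrane proteins were lower in 23 of 47 and higher in 8, with a median of -0.15. Man2b1, lysosomal alpha-mannosidase, stood at 904, 886 and 900.1 CPM untreated and 502, 501 and 464 CPM with ACs (-0.87, adjusted p = 1.48e-10), Gusb fell from 365, 362 and 366 to 262, 242 and 248 CPM (-0.54), and Scarb2, which carries glucocerebrosidase to lysosomes, from 389, 415 and 385 to 251, 256 and 257 CPM (-0.64). The lysosomal transcription factors split: Mitf rose from 62.5, 61.7 and 62.2 to 125, 128 and 128 CPM (1.03, adjusted p = 2.98e-11) and Tfeb fell from 42.05, 37.1 and 45.8 to 30.7, 32.3 and 29.04 CPM (-0.44). The proton pump that acidifies lysosomes was higher in 7 of 18 subunit genes and lower in 2, with Atp6v1h at 0.32 and Atp6v0a1 at -0.67. The CACGTG E-box, contained in the sites of these factors, was found in 12 of 38 genes of the lysosomal list (31.6%) and in 1009 of 10390 tested genes (9.71%).

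Receptors for chemokines, nucleotides and other attractants were lower in 17 of 36 and higher in 10, and 9 of 36 were lower with the fold requirement, against 2.04% of all genes. P2ry12, a receptor for ADP, stood at 23.1, 20.4 and 16.98 CPM untreated and 3.61, 4.92 and 5.01 CPM with ACs (4.47-fold lower, adjusted p = 2.86e-10). Gpr34, a receptor for lysophosphatidylserine, fell from 7.51, 3.55 and 3.002 to 0.755, 0.416 and 0.267 CPM, with untreated replicate 1 above the other controls (adjusted p = 3.56e-07). Ccr2, the receptor that calls monocytes, fell from 10.3, 11.8 and 9.73 to 1.53, 2.35 and 3.43 CPM (4.38-fold lower, adjusted p = 5.66e-07), and Cx3cr1, the fractalkine receptor, from 105, 45.01 and 55.1 to 27.6, 20.3 and 23.2 CPM (-1.53, SE 0.34). Other receptors of the list rose: Gpr84, for medium-chain fatty acids, went from 31.2, 26.6 and 33.9 to 166, 185 and 165 CPM (2.49), Adora2a, the adenosine receptor that raises cAMP, from 2.69, 2.77 and 3.73 to 15.6, 19.9 and 17.3 CPM (2.52), and the chemokine receptor Ccr3 from 4.36, 3.36 and 3.87 to 18.96, 15.2 and 18.1 CPM (2.17). Among Toll-like receptors and adaptors 6 of 24 were higher and 6 lower. Tlr2, for bacterial lipopeptides, rose from 262, 278 and 262 to 709.5, 868 and 890.0 CPM (1.62, adjusted p = 1.02e-09), Tlr7, for RNA, fell from 184, 215 and 175 to 133, 149.6 and 152 CPM (-0.40), and Tlr9, for DNA, did not pass the test (-0.10, adjusted p = 0.544).

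MHC class II presentation genes were lower in 8 of 13 and higher in 1. B cell markers summed to 26.72 to 35.24 CPM untreated and to 17.78 to 20.25 CPM with ACs. Dendritic cell markers overlapped, at 1.633 to 2.114 and 1.359 to 1.703 CPM. The part of other cell types in the class II values was not tested. Cd74, the invariant chain, stood at 33.3, 39.97 and 43.04 CPM untreated and 9.21, 17.2 and 14.98 CPM with ACs (-1.49, adjusted p = 1.04e-06), H2-Eb1 fell from 5.89, 9.01 and 8.93 to 1.45, 3.58 and 2.38 CPM (-1.67), and H2-DMa, a peptide-loading chain, from 27.6, 24.97 and 26.4 to 14.8, 15.7 and 12.7 CPM (-0.87). Ciita, their master regulator, was under 1 CPM and did not pass the test (adjusted p = 0.87). The exception was the costimulator Cd40, which rose from 5.62, 6.22 and 6.73 to 15.2, 21.3 and 20.4 CPM (1.62, adjusted p = 2.57e-08), and Cd86 did not pass the test (0.01, SE 0.16).

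The single genes with the largest or most precise decreases were of mixed function. Mtus1, a microtubule-associated protein, stood at 119, 125 and 109.7 CPM untreated and 16.7, 20.4 and 19.3 CPM with ACs, 6.26-fold lower (SE 0.11 on the log2 scale, adjusted p = 2.23e-12). Fcgr2b, the inhibitory receptor for IgG, stood at 198, 194 and 177 CPM and 33.6, 40.7 and 38.3 CPM, 5.06-fold lower (adjusted p = 3.18e-11). F13a1, the coagulation factor XIII A chain of tissue macrophages, stood at 187, 109.6 and 91.7 CPM and 23.7, 17.6 and 20.3 CPM, with untreated replicate 1 the highest (adjusted p = 6.31e-07). Sox4, a transcription factor, fell from 44.6, 35.1 and 33.5 to 6.73, 6.02 and 6.35 CPM, Slco2b1, an organic anion transporter, from 5.44, 5.15 and 5.74 to 0.735, 0.814 and 1.18 CPM, and Enc1, an actin-binding adaptor, from 282, 257 and 253 to 66.9, 61.99 and 60.5 CPM. Il6ra, which encodes the IL-6 receptor, fell from 118, 113 and 108 to 45.04, 47.6 and 45.9 CPM (-1.29, SE 0.06), while its ligand rose. The Ras exchange factor Rasgrp3 (-2.93, SE 0.31), the adaptor Tifab (-1.53, SE 0.07) and the heparan sulfate enzyme Ndst1 (-1.38, SE 0.07) fell as well. Cecr6 stood at 1.15, 1.001 and 1.14 CPM untreated and at 0, 0.0568 and 0 CPM with ACs, too few counts for a fold change.

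Of 44 genes of actin signalling 25 were higher and 8 lower. Actb stood at 4321, 3838 and 3945 CPM untreated and 5937, 5563 and 5492 CPM with ACs (0.49, adjusted p = 2.11e-05), Marcksl1, a regulator of cortical actin, rose from 160.5, 143 and 144 to 554, 629 and 622 CPM (2.01), and Rac1, the GTPase of the phagocytic cup, did not pass the test (-0.03, SE 0.05). Of 45 DNA replication genes none was higher and 10 were lower, for example E2f2 (-1.01, adjusted p = 2.45e-06), and of 46 mitosis genes 1 was higher and 2 were lower. Mki67 stood at 137, 116 and 100.9 CPM and 147, 120.3 and 133 CPM (adjusted p = 0.291). Solute carriers were higher in 46 and lower in 57 of 221, beside 20.0% and 18.3% of all genes, and Zfp genes were higher in 36 and lower in 42 of 320. Slc46a3, a lysosomal transporter, fell from 42.4, 42.4 and 41.7 to 13.1, 13.8 and 14.4 CPM (-1.61), and Zfp811 rose from 3.65, 3.15 and 4.21 to 23.6, 30.9 and 29.4 CPM (2.92).

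Whether the response of B6 differed from that of SjSS macrophages was tested by the interaction term of the same fit. Over all genes 752 (4.76%) had a higher and 437 (2.77%) a lower AC response in SjSS than in B6 with an adjusted p below 0.05 and a difference of over 1.3 on the log2 scale. Of the 20 leading higher genes of B6, 14 differed in this way, all with the larger increase in SjSS. The leading genes were chosen on the B6 samples that also enter the interaction, so their counts here are a description. Cxcl10, at 181 to 204 CPM with ACs in B6, reached 4626 to 5143 CPM in SjSS (difference in log2 fold change 3.74, adjusted p = 1.20e-06). Tnf, which is not among these 20, at 144 to 179 CPM with ACs in B6, reached 722 to 835 CPM in SjSS (3.41, adjusted p = 1.62e-10). Other genes that rose in B6 had fold changes whose difference did not pass the test: Olr1 (5.04 in B6 and 5.21 in SjSS, difference 0.17, SE 0.23), Hmox1 (2.43 and 2.25, difference -0.17, SE 0.13) and Mt2 (3.28 and 3.38, difference 0.10, SE 0.25). Nr1h3 and Abcg1 had differences of 0.01 (SE 0.18) and 0.19 (SE 0.18).

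Among the 22 leading lower genes of B6, 8 had a higher AC response in SjSS and none a lower one, a direction that their choice by the lowest B6 values favours, and nothing is read from the count. Trf stood at 747 to 916 CPM untreated and 796 to 952 CPM with ACs in SjSS, with overlapping ranges (-2.02 in B6, 0.08 in SjSS, difference 2.10, adjusted p = 1.03e-09). Fcgr2b differed in its untreated level too, at 78.4 to 111 CPM in SjSS against 177 to 198 CPM in B6, and its AC response differed by 2.48 (adjusted p = 8.55e-10). F13a1 was low in SjSS under both conditions, at 17.8 to 33.2 CPM (2.51, adjusted p = 5.74e-05). Mrc1 (difference 1.36), Cd74 (2.21), H2-Eb1 (2.56) and Axl (1.70) fell in B6 too, with AC responses that were higher in SjSS (adjusted p of 5.12e-08, 3.95e-07, 2.37e-05 and 1.03e-07). Axl rose in SjSS, from 183 to 193 CPM untreated to 333 to 393 CPM with ACs. Mtus1, Sox4 and Enc1 fell in both strains (-2.08, -2.94 and -2.99 in SjSS).

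**Figure D5:**
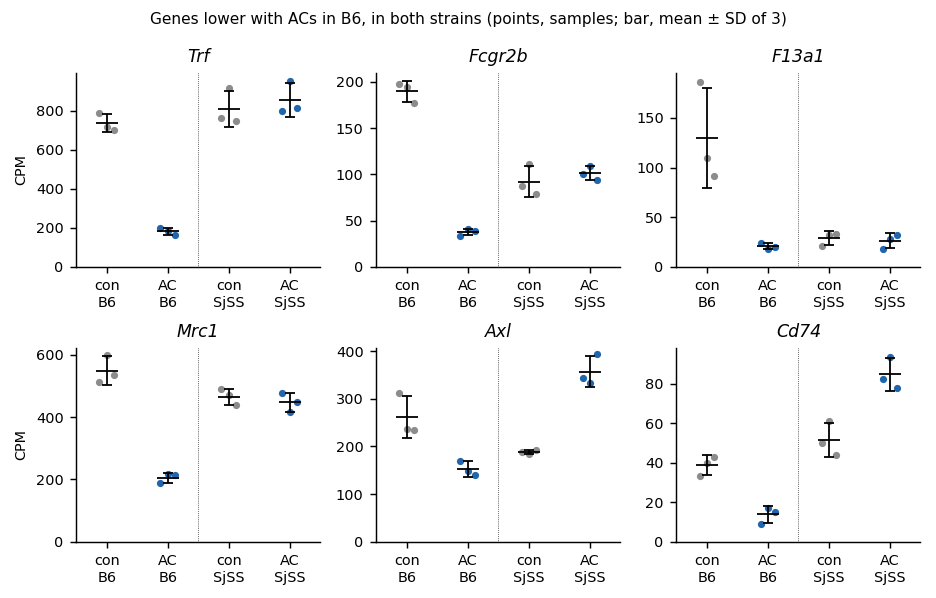
CPM of 6 genes that fell with ACs in B6, in the 3 untreated (con, grey) and 3 AC-treated (blue) samples of each strain, with the mean ± SD (black). AC samples lie below the untreated samples in every B6 panel, and in the SjSS panels they overlap them or, for Axl and Cd74, lie above them.

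Against the other stimulus in the same macrophages, AC and CpG samples of B6 were compared directly, with the reservation that the times differ (2 h with ACs and 3 h more, against 6 h with CpG). The study's text describes a wash and further culture after treatment without excepting CpG, so the time of the CpG samples may be longer. At an adjusted p under 0.05, 3736 genes (23.7%) were higher and 3541 (22.4%) lower with ACs than with CpG, and 575 (3.64%) and 548 (3.47%) with the fold requirement. Metallothioneins and Hmox1 were among the higher ones: Mt2 differed by 3.44 (SE 0.19, adjusted p = 3.18e-11), Mt1 by 2.39 and Hmox1 by 1.39. LXR and efflux genes were higher with ACs in 14 of 21 and lower in 2, with Abcg1 at 2.68 (adjusted p = 1.13e-11) and Abca1 at 1.52. Against untreated samples the median of this list was 0.027 with ACs and -0.455 with CpG, so a fall with CpG is part of the difference. Plin2, the droplet coat gene, was also higher (1.79), by more than its rise over untreated samples. Sterol synthesis genes were lower with ACs in 22 of 26 and higher in 1, with Stard4 at -2.25 (adjusted p = 8.77e-12) and Hmgcs1 at -1.62. Inflammatory cytokines were lower with ACs in 17 of 27 and higher in 3, with Il1b at -4.32 (adjusted p = 4.88e-12) and Tnf at -2.55. Il10 was lower as well (-3.23). Interferon-stimulated genes were lower in 31 of 52 and higher in 5, Oasl1 being one of the higher ones (1.63, adjusted p = 2.93e-06), and Cxcl10 was higher too (1.81, adjusted p = 6.20e-07). DNA replication genes were higher with ACs in 41 of 45 and lower in none, although their median against untreated samples was -0.182 with ACs and -1.147 with CpG. Fcgr2b was lower with ACs (-2.72, adjusted p = 2.09e-12), while Sox4 and Slco2b1 were higher, having fallen further with CpG (2.61 and 3.06).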

How the data were processed

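RNA-seq was carried out on 18 BMDM samples in 6 groups of 3, and the comparison used the 3 AC-treated and 3 untreated B6 samples. Per the labels, the submitters' processing notes name STAR, Partek, DESeq2 and the mm10 build. The authors deposited 1 table of estimated counts per gene, made with these tools and not normalized. It held 20615 genes, 41.1% of its values were not whole at a tolerance of 1e-06, and values were rounded. Per the study's methods, reads were assigned to mm10 genes with Partek's E/M (expectation-maximisation) tool, which divides reads shared between genes by estimate. Whether strand was used is not given in the sources used here. Names of 23 genes read as calendar dates, and these are left unnamed. Some genes are not reported here. The labels give 3 h of culture after washing, and the study's methods section gives another length.

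Counts were fitted with edgeR 4.0.16 (TMM, filterByExpr, quasi-likelihood test) on all 18 samples in 6 groups, which share 1 estimate of the spread, and 15789 genes were tested with Benjamini-Hochberg adjustment. The SE is the log2 fold change divided by the square root of F. Calls used an adjusted p under 0.05, alone or with a log2 fold change over 1.3. Totals were 43846598 to 57139662 counts a sample, so genes of a few CPM rest on over 100 counts and those under 0.1 CPM on a few. On simulated data for AC against untreated B6 (15372 genes, log2 fold change 2), 187 of 198 changed genes (94.4%) were recovered with 2 false calls. Those calls included the fold requirement, and the simulated spread followed the fitted trend in place of each gene's own. The simulation thus does not cover calls at the adjusted p alone or changes of smaller size. Library replicates differed by more than counting noise. The study describes the replicates as mice, and the labels do not link samples to mice or separate cultures. The p-values thus measure only the spread between these samples.

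Genes named were, in each direction, the 12 largest changes without overlap of the groups and at least 1 CPM in the higher group, the 12 smallest p-values, and of each of 39 gene lists the 4 members with the smallest p and up to 2 textbook members. Insig2, Csf1r, Adgre1, Cd28, Cd5, Tcf7, Dusp1, Cebpd, Tgm2 and the genes of the last section were named after their values were seen. Members and lists were chosen with earlier results of these data known. Promoters are RefSeq, GRCm38.p6, and 10390 tested genes had at least 1. A gene counted as holding a motif if the window before any of its starts did. For the printed genes, the first start in genome order that held the motif was used. Alternatives were DESeq2 1.42.0, its size factors within edgeR, other filters, a higher fold threshold, only the 6 samples, a replicate block, and each sample left out in turn.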

Additional observations from a re-analysis of the deposited data

Results flagged for a closer look

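The AC response differed between strains, by the interaction term of the same fit with an adjusted p below 0.05 and a difference of over 1.3 on the log2 scale, in 22 of the 42 leading genes of B6, each time with the higher value in SjSS. Over all genes 4.76% were higher and 2.77% lower in SjSS by this rule. The leading genes were chosen on the same B6 samples, which for the lower genes favours a higher value in SjSS, so their count is a description. The differences below are the AC response in SjSS minus that in B6, on the log2 scale, and what accounts for them was not tested.

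Among genes of interferon responses the difference was 3.74 for Cxcl10, 3.46 for Ifi205, 1.92 for Oasl1, 2.96 for Ifit1, 4.09 for Ifit1bl1, 3.47 for Rsad2, 3.97 for Cmpk2 and 2.62 for Mx2. All 8 rose in both strains. Among the other genes that rose in B6 it was 4.63 for Il6, 3.41 for Tnf, 3.20 for Acod1, 2.97 for Clec4e, 5.17 for Cd69, 4.41 for Cd40, 1.53 for Sod2 and 2.53 for Marcksl1. Cd69 went from 1.86 to 2.04 CPM untreated to 25.2 to 31.8 CPM with ACs in B6 and to 954 to 987 CPM in SjSS.

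Among genes that fell in B6 the difference was 2.10 for Trf, 2.48 for Fcgr2b, 2.51 for F13a1, 1.33 for Rnf144b, 2.01 for Slco2b1, 2.21 for Cd74, 2.56 for H2-Eb1, 1.70 for Axl, 1.36 for Mrc1 and 1.75 for Chp2.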

How the results depend on the processing

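With a log2 fold change over 2, 168 genes were higher and 75 lower. Under DESeq2, its size factors within edgeR, 2 other filters on low counts, the 6 samples alone and the replicate block, the counts stayed within 1.5 times those reported: 2929 to 3406 higher and 2865 to 3108 lower at the adjusted p alone, and 307 to 411 higher and 305 to 358 lower with the fold requirement. Leaving out each sample in turn gave 2701 to 2840 higher and 2430 to 2646 lower, and 346 to 392 higher and 300 to 350 lower with the fold requirement, of which 320 to 343 of the 383 and 247 to 277 of the 322 were the same genes. With the 6 samples alone 305 of the 383 and 286 of the 322 were the same genes, and the share of higher genes among the calls with the fold requirement was 50.2% in place of 54.3%. No result changed direction among those called. Of the named genes' values against untreated samples under an alternative, 3025 kept their side of the threshold, 36 lost it and 21 gained it.

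Same-numbered AC and untreated B6 samples had deviations correlated at 0.193, 0.0437 and 0.0198, so the numbers were not taken as pairs. The samples numbered 1 correlated best with each other, and those numbered 2 and 3 with the other number. With the replicate block 3406 genes were higher and 3108 lower, 392 and 331 with the fold requirement, and 16 DNA replication and 9 mitosis genes were lower in place of 10 and 2. Mki67 was then higher at 0.18 (adjusted p = 0.0469). The thymocyte marker sum was lower with ACs over all 30 markers and higher over the 19 under the filter. Genes below about 0.1 CPM, such as Ifnb1 in untreated samples, are limited by depth.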

Other observations

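Of the 383 genes higher and 322 lower with ACs under the fold requirement, 52 and 52 also differed in the same direction from the CpG samples of B6. Both comparisons use the same 3 AC samples, and nothing is read from these counts. The genes below were chosen from these after their values were seen. Cd5l, a secreted scavenger protein of tissue macrophages and a known LXR target, stood at 462, 439 and 521 CPM untreated and 1379, 1254 and 1072 CPM with ACs, a log2 fold change of 1.38 (SE 0.10), and was also above CpG (adjusted p = 5.69e-10). Inhba, which encodes the activin A subunit, stood at 10.01, 5.05 and 8.17 CPM untreated and 23.8, 20.8 and 19.4 CPM with ACs (1.45, SE 0.20, and 1.86 above CpG). The AC samples of both genes lay above every untreated sample. Phldb1 (1.80 against untreated, 2.12 against CpG), Ifi27l2a (1.96 and 1.95), S100a4 (1.40 and 1.59) and Syn1 (1.64 and 1.88) were in the same set.

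Among the lower genes, Mmp12, the macrophage elastase, stood at 562, 840.3 and 860.1 CPM untreated and 255, 187 and 227 CPM with ACs (-1.76, SE 0.16, and -1.65 against CpG). Itgax, which encodes CD11c, stood at 19.6, 22.8 and 30.4 CPM untreated and 8.18, 6.68 and 7.69 CPM with ACs (-1.69, SE 0.14, and -1.67 against CpG). The sterol enzymes Idi1 (-1.67 and -2.92), Cyp51 (-1.44 and -2.37) and Sqle (-1.31 and -2.63) fell below both, having a higher level with CpG than untreated (log2 fold changes 1.24, 0.93 and 1.32). H2-Aa, an MHC class II chain (-1.52 and -1.44), and Ldlrad3 (-1.73 and -1.53) were in the same set.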
